A study of Arabidopsis thaliana with 4 samples.

Results

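The genes described here are 10 members of the class IV homeodomain-leucine zipper (HD-ZIP IV) family of Arabidopsis: FWA, HDG3, HDG8, HDG9, HDG1, HDG2, HDG4, HDG5, HDG11 and HDG12. They were taken by locus identifier from the RefSeq annotation of TAIR10.1, which holds 27444 protein-coding genes. For each gene every summit of RNA polymerase V (Pol V), the position of the highest signal in a peak, was collected if it lay inside the gene or within 3000 bp of either end. This gave 14 of the 11478 summits in the list. The list came from 1 peak call on published chromatin immunoprecipitation and sequencing (ChIP-seq) reads, Pol V antibody against a control without antibody, so no position has a replicate, no spread between replicates can be given and none of the values below was tested. The genotype, tissue and sequencing depth behind that list are not given in the sources used here. The study itself made 4 anti-FLAG libraries from untreated greenhouse inflorescences, 1 each from DRD1-Flag, DMS3-Flag and RDM1-Flag plants and from untransformed Col0 plants as the control, and these were not analysed here.

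Pol V is the plant polymerase of RNA-directed DNA methylation (RdDM). It transcribes the target locus itself, small RNAs carried by ARGONAUTE 4 pair with that transcript, and the methyltransferase DRM2 then methylates cytosines nearby. HD-ZIP IV proteins are transcription factors with a homeodomain, a leucine zipper and a lipid-binding START domain, and most act in the epidermis. FWA is the member best known for DNA methylation: repeats at its 5′ end are methylated and the gene is silent in vegetative tissue, and the unmethylated fwa epialleles are expressed there and flower late. FWA, HDG8 and HDG9 are known as maternally expressed imprinted genes of the endosperm and HDG3 as a paternally expressed one. The other 6 members are not counted as imprinted here. This grouping was chosen with earlier results of these data known, so differences between the groups below are descriptions only.

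Pol V summits lay inside or within 3000 bp of all 4 members known as imprinted and 3 of the other 6, against 44.2% of all protein-coding genes. At FWA, HDG9, HDG3 and HDG8 the nearest summit was 133 to 1135 bp from the annotated gene start, against 2995 to 16675 bp at the other 6 members. Of all protein-coding genes, 1.98% had a summit as near as FWA and 20.4% one as near as HDG8. The related genes HDG10, GL2, PHV and CNA, outside the 10 members, also had a summit within 1135 bp of the start. At FWA the summit fell in a tandem repeat. HDG8 had 2 summits, 1 at 1135 bp upstream, closer to a neighbouring gene, and 1 in an intron, 2457 bp after the start. Among the 16 HD-ZIP IV genes examined, the intron at this place is long in HDG8 only. HDG9 carried 5 summits, of which 2 lay 259 and 1341 bp downstream, the farther one closer to a neighbouring gene. HDG1, HDG4 and HDG11 had none within 3000 bp.

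Sequences at summits of these members are shown first. All are from the RefSeq TAIR10.1 genome, which has the same nuclear chromosomes as the TAIR10 build of the list, and are written 5′ to 3′ on the strand of the gene. FWA (AT4G25530, chr4:13038360-13042464, plus strand) had its summit at chr4:13038493, in intron 1 of 9, which separates untranslated exons. This intron lies in copy 1 of the tandem repeat, and the matching stretch of copy 2 begins at the first base of intron 2. Capitals in the next pair mark the bases that differ or are present in 1 copy only.
FWA intron 1, chr4:13038418-13038519: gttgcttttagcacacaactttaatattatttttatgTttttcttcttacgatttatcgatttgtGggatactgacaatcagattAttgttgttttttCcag
FWA intron 2, first bases, chr4:13038629-13038729: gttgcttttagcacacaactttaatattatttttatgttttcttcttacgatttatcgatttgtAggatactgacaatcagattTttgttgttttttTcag

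The highest-scoring summit near a member lay downstream of HDG9 (AT5G17320, chr5:5703139-5707637, minus strand), at a pair of exact 24 bp copies spaced 67 bp apart. Capitals mark both copies, and the summit, chr5:5701798, is inside the first copy as printed.
HDG9 downstream repeat, chr5:5701723-5701823: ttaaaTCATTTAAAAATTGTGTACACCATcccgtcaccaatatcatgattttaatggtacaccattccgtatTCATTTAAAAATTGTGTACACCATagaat

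Shorter windows are given for the other summits that lie close to, or in an intron of, a member known as imprinted. In these windows the capital marks the summit base.
HDG3 upstream, chr2:13740073-13740113: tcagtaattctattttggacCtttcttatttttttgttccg
HDG8 intron 7, chr3:756805-756845: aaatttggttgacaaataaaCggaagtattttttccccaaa
HDG8 upstream, chr3:760397-760437: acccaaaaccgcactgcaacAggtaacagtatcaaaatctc
HDG9 intron 1, chr5:5707427-5707467: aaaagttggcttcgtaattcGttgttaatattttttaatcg
HDG9 upstream, chr5:5708391-5708431: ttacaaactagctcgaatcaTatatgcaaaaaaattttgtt
HDG9 downstream, nearer summit, chr5:5702860-5702900: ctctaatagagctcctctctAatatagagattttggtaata

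**Figure D1:**
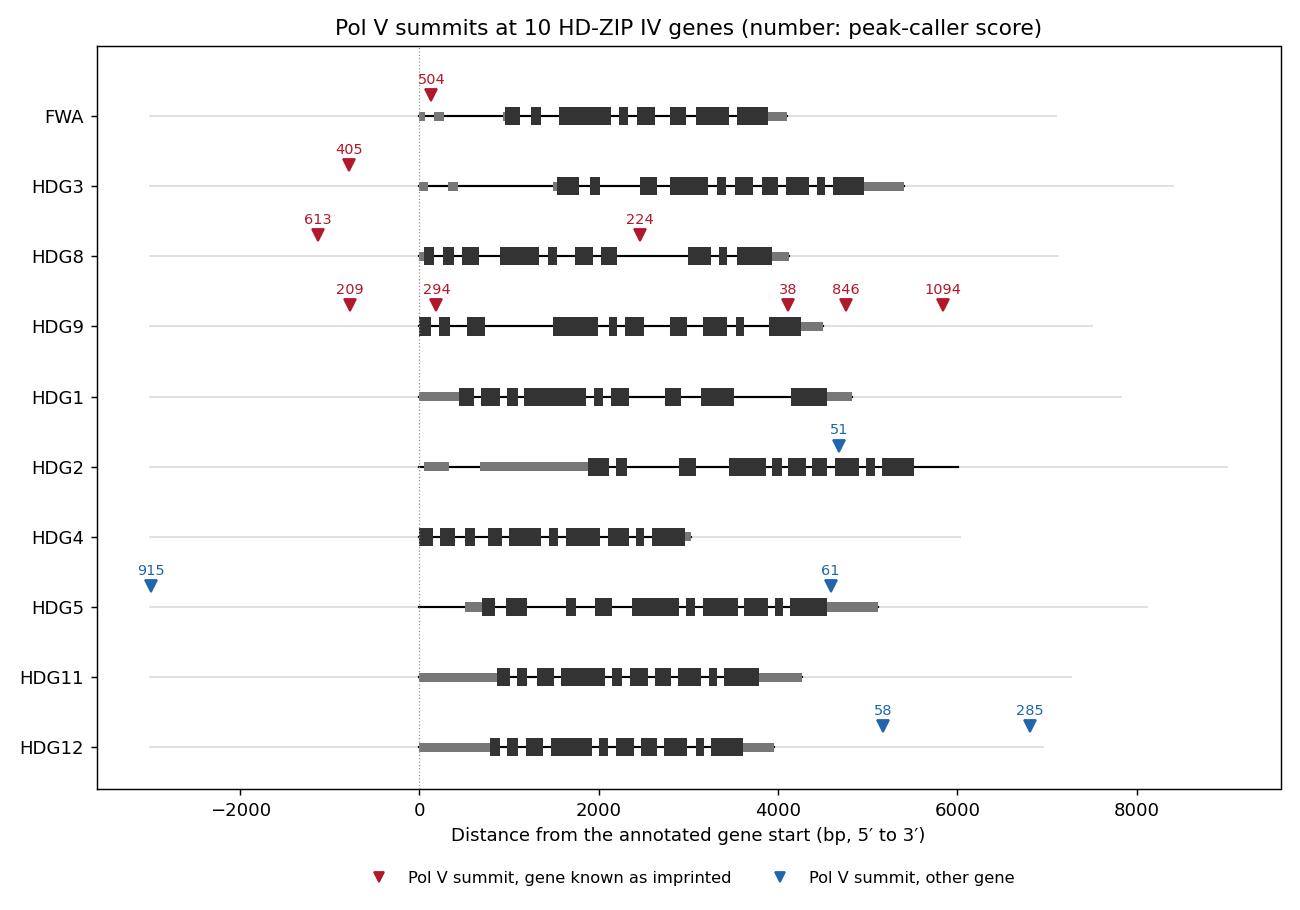
Each row is 1 of the 10 HD-ZIP IV genes, drawn 5′ to 3′ against distance from its annotated start in bp, with coding exons as tall dark boxes, untranslated exons as low grey boxes and the grey line reaching 3000 bp past each end. Triangles are Pol V summits with their peak-caller score, red at genes known as imprinted and blue at the others. HDG9 has 5 summits, FWA and HDG3 have 1 each near the 5′ end, and HDG1, HDG4 and HDG11 have none.

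A summit was present inside or within 3000 bp of 7 of the 10 members, against 44.2% of all 27444 protein-coding genes (12118 genes). A summit lay inside 5 of the 10 members, against 8.03% of all protein-coding genes. The members are long, from 3034 to 6005 bp against a median of 2078 bp over all protein-coding genes, and a long gene offers more room for a summit. Among the 6842 protein-coding genes of at least 3034 bp, 45.2% had a summit inside or within 3000 bp and 9.19% had a summit inside. Upstream of the gene and within 3000 bp, a summit was found at 4 of the 10 members (27.6% of all protein-coding genes). Downstream it was found at 2 of the 10 members (22.8% of all protein-coding genes). With 10 genes and 1 peak call, these shares are descriptions.

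For 9 of the 14 summits the member was the nearest protein-coding gene. This held for 7 of the 9 summits at the members known as imprinted and for 2 of the 5 at the others. HDG9 alone held 5 of those 9 summits at members known as imprinted. The same share over all protein-coding genes was not computed, so these counts have no background. The remaining 5 of the 14 summits lay closer to, or inside, a neighbouring gene, and are described below with that neighbour.

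Distances to the gene start were then set against all protein-coding genes, whose nearest summit lay a median of 5098 bp from the start. FWA had its nearest summit 133 bp from the start, and 1.98% of all protein-coding genes had one as near or nearer. HDG9 followed at 190 bp (2.92% of genes as near or nearer), HDG3 at 785 bp (15.3%) and HDG8 at 1135 bp (20.4%). Each distance is to the nearest summit, whichever gene that summit is closest to. The one at HDG8 lay closer to AT3G03270, at 587 bp, and the summit inside HDG8 was 2457 bp from the start. FWA and HDG9 thus stood near the low end of all genes, while HDG3 and HDG8 were nearer than most genes without being rare. The other members had values of 2995 bp for HDG5 (36.6%), 4029 bp for HDG2 (43.7%), 5172 bp for HDG12 (50.4%), 14629 bp for HDG1 (79.7%), 14787 bp for HDG11 (79.9%) and 16675 bp for HDG4 (82.8%). The median was 487.5 bp over the 4 members known as imprinted and 9900 bp over the other 6. Both HDG9 and HDG4 are annotated from the first coding base, with no 5′ untranslated region, so their distances are counted from the start codon.

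Space upstream differed between the same groups. From the gene start to the next protein-coding gene it measured 1721 to 3331 bp (median 2580 bp) at the members known as imprinted and 189 to 4549 bp (median 941 bp) at the other 6, against a median of 940 bp over all protein-coding genes. Its part in the distances was not tested.

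**Figure D2:**
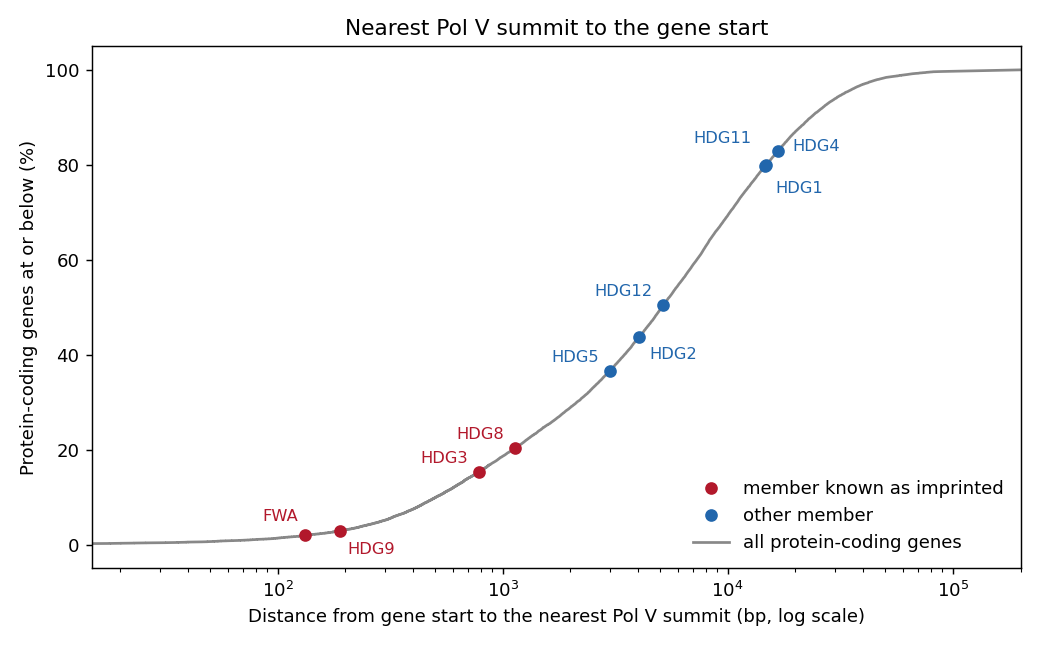
The grey curve gives the percentage of protein-coding genes whose nearest Pol V summit lies at or below a distance from the gene start, on a log scale in bp, and the points are the 10 HD-ZIP IV genes on that curve. The 4 genes known as imprinted, in red, lie between 133 and 1135 bp, and the other 6, in blue, between 2995 and 16675 bp.

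Scores were compared only within the list, since the peak caller's score is the authors' whole number per peak with no unit named. The 14 summits near members had scores of 38 to 1094 with a median of 289.5, against 28 to 1615 with a median of 169 over all summits, and 10 of the 14 were at or above that median. At the members known as imprinted the 9 summits had a median of 405, with 8 at or above the list's median. At the other members the 5 summits had a median of 61, with 2 at or above it. HDG9 alone held 5 of the 9 summits, so the summits of a group do not stand for separate genes. When only the 9 summits with a member as nearest gene were kept, the median over both groups was 224 in place of 289.5.

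**Figure D3:**
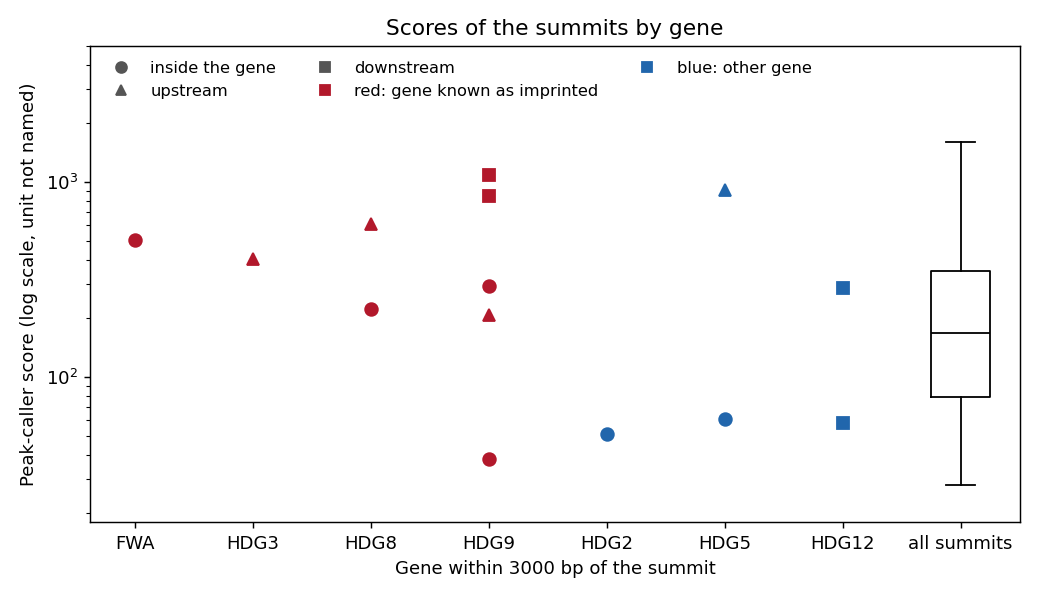
Points are the 14 Pol V summits at 7 HD-ZIP IV genes, placed by gene and by the peak caller's score on a log scale, with circles inside the gene, triangles upstream and squares downstream. Red marks genes known as imprinted and blue the others, and the box gives the quartiles of all 11478 summits with whiskers to the lowest and highest score. Of the 9 red points 8 lie above the box's median line of 169, and of the 5 blue points 2 do.

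FWA had 1 summit, with a score of 504, higher than 85.8% of all summits. It is 133 bp after the gene start and is base 76 of the 102 bp of intron 1. The first coding base is much further along, at chr4:13039312 in exon 3 of 10. The genomic sequence around the summit held a tandem repeat: copy 1 spanned chr4:13038335-13038535 (201 bp), copy 2 spanned chr4:13038546-13038745 (200 bp), and they were 94.5% identical. Copy 1 begins 25 bp before the gene start, so the repeat, with its spacer, covers the start, exon 1, intron 1, exon 2 and the beginning of intron 2. The summit was base 159 of copy 1.

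The longest exact stretch shared by the FWA copies was 63 bp, at a spacing of 211 bp. Between intron 1 and the start of intron 2, printed above, 98 of 101 aligned bases were identical and 1 base was present in copy 1 only. Of all 11478 summits 7.07% had a tandem or other direct repeat of this kind within 500 bp. For 1.29% (148 summits) it was at least as long as that of FWA. Near the members 2 of the 14 summits (14.3%) had such a repeat. Besides FWA this was the HDG9 summit at 1341 bp downstream, with a repeat of 105 bp at 81.9% identity. Reads were kept by the authors only when they mapped to 1 place, and 93.8% of the 50-base words in the 501 bp around the FWA summit occur once in the genome, against 100% at each of the other 13 summits. How many reads were lost there was not measured.

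No segment elsewhere in the genome was similar to the 501 bp around the FWA summit, and the next summit from the gene was 9496 bp downstream, near LAF1. The window held 42 cytosines in CG sites, counted on both strands, against a median of 20 over all summits, together with 23 CHG cytosines (median 18) and 116 CHH cytosines (median 120), where H is A, C or T. Methylation at CG sites is copied at replication, whereas that at CHH sites has to be set anew, by RdDM among other routes. These are counts of bases that could be methylated, and methylation was not measured here.

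HDG9 had 5 summits, and 0.696% of all protein-coding genes (191 genes) had 5 or more. Going along the gene, they scored 209 at 774 bp upstream, 294 in intron 1, 38 in coding exon 10 of 10, 846 at 259 bp downstream and 1094 at 1341 bp downstream. The 2 downstream summits were the strongest, at ranks 388 and 103 of the list. The exonic summit was the weakest of all 14, with 3.61% of summits scoring lower. The farther downstream summit lies 805 bp upstream of UGP2, a UDP-glucose pyrophosphorylase gene that sucrose and cell wall synthesis draw on, and UGP2 is nearer to it than HDG9.

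HDG8 has the same neighbour arrangement. It is followed on its own strand by UGP1, as HDG9 is by UGP2, so the 2 loci can be set side by side. The gap between HDG9 and UGP2 was 2145 bp and held 2 summits, while the gap between HDG8 and UGP1 was 997 bp and held none.

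The DNA in the HDG9 to UGP2 gap occurs elsewhere in the genome. A 505 bp alignment with 92.1% identity joined the 501 bp around the strongest summit to chr2:932614-933115, where a summit with a score of 94 lay within 250 bp. A second segment, chr2:14417998-14418426, was 90.9% identical over 430 bp and had a summit with a score of 1015 within 250 bp. In all 13 segments were similar to this window and 5 of them (38.5%) had a summit. Around the nearer downstream summit, at chr5:5702880, 43 segments were similar and 27 of them (62.8%) had a summit. Among the 6689 summits of the list with at least 10 similar segments the median share was 40.5%, with 45.7% of them lower than the strongest summit's window and 80.4% lower than the nearer one's. The nearer window was also poor in CG sites, with 2 CG cytosines.

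The remaining 3 summits of HDG9 had few similar segments, and none of those had a summit within 250 bp. The window at intron 1 (90 bp long, summit 190 bp after the start) resembled HDG10, HDG8 and HDG12 at the matching coding sequence. The segment in HDG10, chr1:12693077-12693427, was 293 bp from a summit of HDG10 with a score of 408, which lies 211 bp upstream of that gene. In the other direction, the window around this HDG10 summit resembled chr5:5707671-5707970 just upstream of HDG9 (75.9% identity over 307 bp), 224 bp from the summit in HDG9 intron 1. Both gene starts, similar in sequence, thus had a summit close by. The exonic window resembled HDG10 and HDG8. The upstream window resembled 1 segment, 222 bp long as aligned and 67.6% identical, between AT1G34640 and HDG10.

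HDG8 (AT3G03260, chr3:755159-759282, minus strand) had 2 summits. One, with a score of 613, lay 1135 bp upstream at chr3:760417, in the gap to AT3G03270, which was closer at 587 bp. Its window was the most repeated of the 14: 76 segments were similar, with alignments of 41 to 185 bp and 66.4 to 93.8% identity, and 61 of the 76 (80.3%) had a summit within 250 bp. Of the 6689 summits with at least 10 similar segments, 94.8% had a lower share than this one.

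The other HDG8 summit, with a score of 224, lay 2457 bp after the gene start in intron 7, at chr3:756825. This intron is 790 bp long (chr3:756287-757076). An intron lies at the same place in the coding sequence of all 15 other HD-ZIP IV genes examined, where it is 72 to 224 bp long (median 88 bp) and holds no summit. In HDG9, the protein most similar to HDG8 at 52.1% identity, it measures 177 bp. No segment elsewhere was similar to the window around this summit, and its GC content was 24.2%, against a median of 31.7% over all summits.

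The same comparison was made for the other introns with a summit between coding exons. HDG10, a family member outside the 10 genes whose closest protein is HDG9 (69.2% identity), had a summit with a score of 130 in intron 4, which was 676 bp long against 74 to 114 bp at that place in the other 15 genes. For intron 1 of HDG9 the length was ordinary, 90 bp against 76 to 636 bp (median 94 bp) in the other 15, none of which had a summit there.

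**Figure D4:**
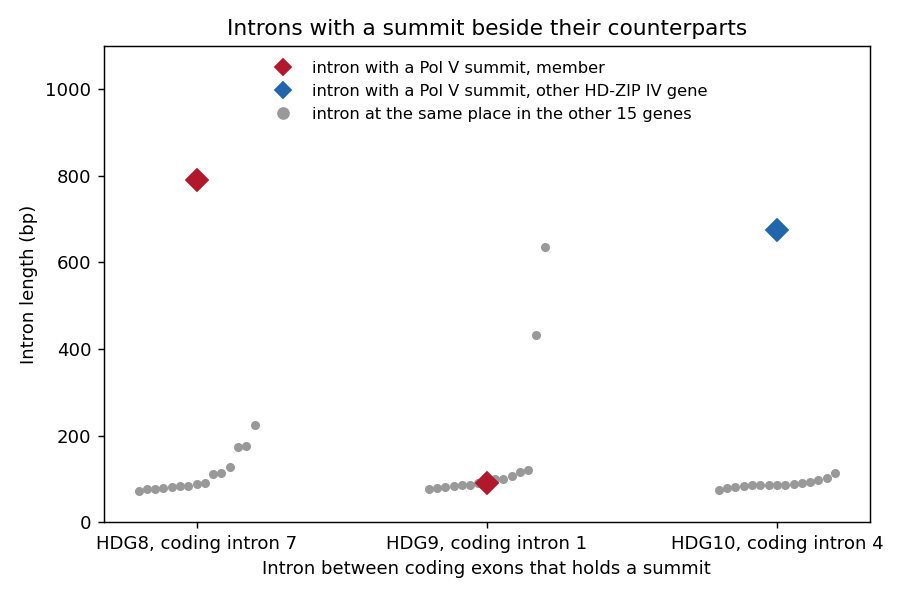
Diamonds are introns between coding exons that hold a Pol V summit, placed by their length in bp, and grey points are the introns at the same place in the coding sequence of the other 15 HD-ZIP IV genes. HDG8 intron 7 (790 bp) and HDG10 intron 4 (676 bp) lie above all of their counterparts, and HDG9 intron 1 (90 bp) lies among its own.

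HDG3 (AT2G32370, chr2:13740878-13746286, plus strand) had 1 summit, 785 bp upstream at chr2:13740093, with a score of 405, higher than 79.6% of all summits. It was the only summit in the 3331 bp between HDG3 and AT2G32360. Its window had no similar segment elsewhere, no direct repeat and 24.6% GC. HDG3 is thus the 1 member known as imprinted whose summits are all outside the gene.

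At the members not counted as imprinted, the 2 summits inside the genes had low scores, and both were in exons. The only exonic summit at a member known as imprinted, that of HDG9, scored 38. Intronic summits, found only at FWA, HDG8 and HDG9 among the members, scored 504, 224 and 294. Outside the members, the intronic summit of HDG10 scored 130, below the list's median of 169. Scores of intronic and exonic summits over the whole list were not computed. HDG2 (AT1G05230, chr1:1512896-1518900, minus strand), which is known to promote stomatal development, had a summit with a score of 51 in coding exon 9 of 11, in all 12 annotated transcripts, and 10.9% of summits scored lower. A long non-coding RNA, AT1G04353, is also annotated over this position. The window resembled 7 segments, all in the HD-ZIP IV genes PDF2, ATML1, HDG3, HDG1 and ANL2, and none had a summit.

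HDG5 (AT5G46880, named HB-7 in the annotation, chr5:19030844-19035959, plus strand) had a summit with a score of 61 in the untranslated part of its last exon. Its other summit scored 915, higher than 97.5% of all summits, but lay 2995 bp upstream, just inside the limit, and 1555 bp from AT5G46877. A further summit with a score of 947 lay just outside it, 4444 bp upstream. The window around the summit at 2995 bp resembled 34 segments, of which 24 (70.6%) had a summit.

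HDG12 (AT1G17920, chr1:6161870-6165820, minus strand) acts with HDG11 in trichome branching. It had 2 summits downstream, and both belong closer to AT1G17910. The one at 1222 bp scored 58 and lies inside AT1G17910, and the one at 2856 bp scored 285 and lies 112 bp upstream of that gene. Of the segments similar to the first, 0 of 20 had a summit, and of those similar to the second 21 of 35 (60.0%) had one. Along the chromosome 1 peak number is absent between the 2 listed summits of HDG12, and 1 between those of HDG5. A peak of the call may therefore be missing from the list there, among 749 absent numbers in all.

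HDG1, HDG4 and HDG11 had no listed summit within 3000 bp. The nearest was 14629 bp upstream of HDG1 (score 258), 13642 bp downstream of HDG4 (score 114) and 14787 bp upstream of HDG11 (score 1187). HDG2 had a further summit just past the limit, 4029 bp upstream with a score of 771, inside AT1G05240. HDG12 had one at 5554 bp downstream with a score of 111. Without the depth of the Pol V library, a gene with no listed summit cannot be told from one below detection.

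**Figure D5:**
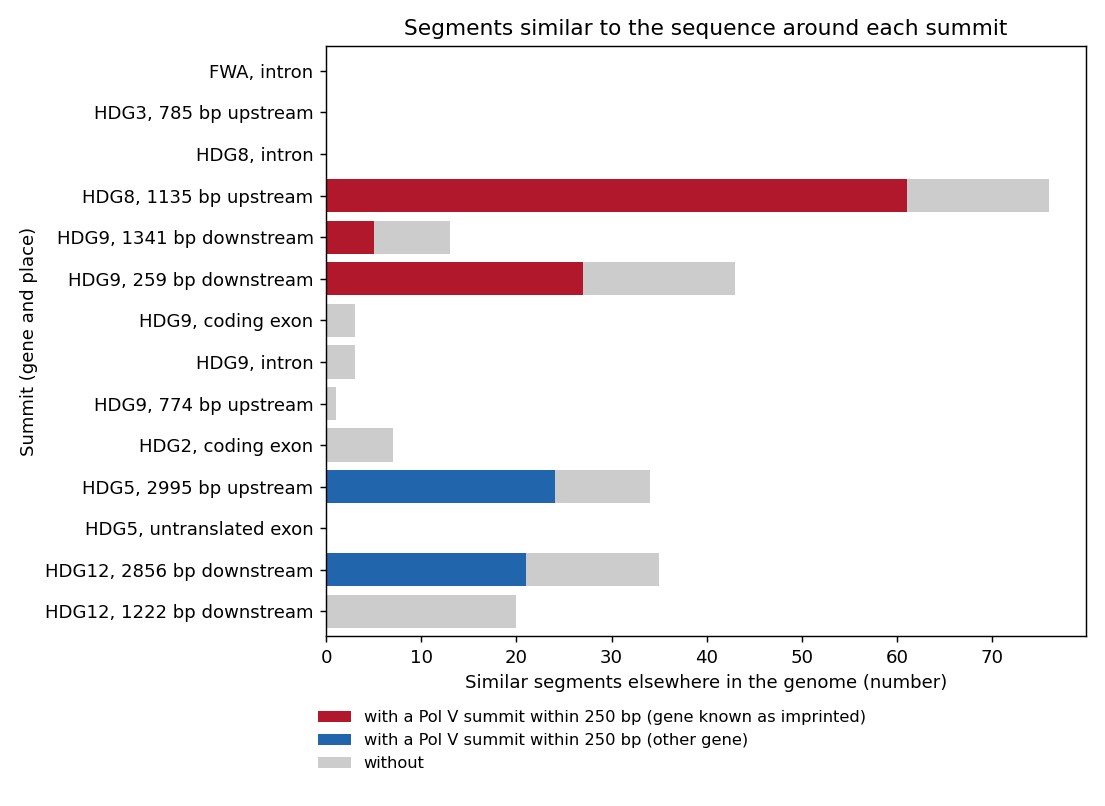
Each bar counts the segments elsewhere in the genome that are similar to the 501 bp around 1 of the 14 summits at HD-ZIP IV genes, coloured for the segments with a Pol V summit of their own within 250 bp and grey for those without. For HDG8 at 1135 bp upstream 61 of 76 segments have one, and the summits in exons and introns of FWA, HDG8, HDG9, HDG2 and HDG5 have at most 7 similar segments, none with a summit.

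Over the 14 windows, 5 (35.7%) had a summit at 1 or more similar segments, against 73.0% of all summits. These 5, at HDG8 upstream, both HDG9 downstream positions, HDG5 upstream and HDG12 at 2856 bp, all lay outside protein-coding genes, against 7 of all 14. Over the list 83.3% of such summits lay outside, not far from the 77.5% of all summits. The 5 had scores of 285 to 1094. The other 9 had either no similar segment (4 windows) or similar segments without a summit (5 windows), and they had scores of 38 to 504. The count depends on how many segments there are: the 5 windows had 13 to 76, and of the 5 with segments but no summit there, HDG12 at 1222 bp had 20 and the others had 1 to 7. Of the 14 windows 71.4% had a similar segment elsewhere, against 87.5% of all summits, with a median of 5 segments against 15. Where there were similar segments, the median share of them with a summit was 19.2% at the members and 36.4% over all summits. Exact direct repeats of 15 bp or more were near 28.6% of the 14 summits, against 30.6% of all summits. GC content had a median of 33.7% at the 14 summits and 31.7% over all summits. Members share ancestry, so their windows are not independent of each other.

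Each member was also set beside the family protein most similar to its own. HDG12 had 2 summits and HDG11 had none, with 76.1% identical proteins. HDG2 had 1 and ATML1 had none, at 75.5% identity. HDG9 had 5 and HDG10 had 2, at 69.2% identity, and HDG1 had none and ANL2 had 2, at 68.0% identity. HDG5 had 2 and HDG4 had none, at 65.5% identity. HDG3 and HDG2 had 1 each, at 58.2% identity, and HDG8 had 2 against 5 at HDG9, at 52.1% identity. FWA, with 1 summit, was the least similar of the members to any other family protein, with HDG7 nearest at 48.8% identity, and HDG7 had no summit within 3000 bp.

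The L1 box is the promoter motif that epidermal HD-ZIP IV factors bind, searched here as TAAATGCA or TAAATGTA on both strands. In the 1000 bp before the gene start it was found at HDG8 and HDG2, 2 of the 10 members (20.0%), against 15.8% of all protein-coding genes. Within 250 bp of a summit it was found at 1 of the 14 summits (7.14%), against 7.91% of all summits.

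Among the other 6 HD-ZIP IV genes, a summit lay inside or within 3000 bp of 4: PDF2, GL2, ANL2 and HDG10. The share over all protein-coding genes was 44.2%. These 4 genes had 6 summits of score 66 to 408. ATML1, a regulator of epidermal identity whose protein is 91.7% identical to that of PDF2, had none, and neither did HDG7. In the sister class HD-ZIP III, which patterns leaf polarity and vascular tissue, summits lay near PHB, PHV and CNA and not near REV or ATHB8. These are 3 of 5 genes, against the same 44.2%, with 4 summits of score 89 to 428 and none inside a gene. HDG10, GL2, PHV and CNA had their nearest summit 211, 689, 342 and 627 bp from the gene start. A summit within 1135 bp of the start, the farthest at the members known as imprinted, was thus also found at 4 genes of these lists. Of all protein-coding genes 20.4% had one as near.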

How the data were processed

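Deposited values were 1 score per Pol V summit. The authors aligned published Pol V and no-antibody reads to TAIR10 with Bowtie 1.0.0, keeping uniquely mapping reads, removed duplicates with SAMtools 0.1.19, used MACS2 for peak calling (q-value 0.05) and retained peaks enriched more than 2-fold. The score is a whole number of unnamed unit and was used only within the list. Unique mapping removes signal in near-identical repeats, and 1 summit per peak discards its width. After 1 blank record was left out, 11478 summits remained on 5 chromosomes, with 0 unused columns of values. Depth is unknown.

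Positions were set against RefSeq TAIR10.1 genes, from gene start to gene end. Repeats and similar segments were found with BLAST 2.17.0 (blastn, E-value 1e-5) in 501 bp windows, and within 500 bp for direct repeats. A similar segment excludes the 3000 bp around the summit itself. Words of 50 bases were counted over both strands of the whole genome. Proteins were translated from the longest coding sequence and aligned with Biopython 1.88. Figures were drawn with matplotlib 3.10.9, and all steps ran in Python 3.11.15 with SciPy 1.17.1 and NumPy 2.4.6. The scripts were tested on simulated data.

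The members and lists were chosen with earlier results of these data known. All summits by the distance rule are named, and the genes of the comparison lists by summit count. The similar segments, introns, gaps to neighbours and the share of long genes with a summit inside were added after seeing the data. Alternatives were other distances, the score at or above the median, merged summits, other gene boundaries and long genes. The 4 anti-FLAG libraries were not analysed here.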

Additional observations from a re-analysis of the deposited data

How the results depend on the processing

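Of 25 alternatives over 6 results, 18 stayed within the limit set for that kind of result and 7 moved. For counts the limit was a ratio of 1.5 to the main value, and for the median score an interval of 58 to 846. For the share of all protein-coding genes it was an interval of 43.6 to 44.7%. The limits for counts and for the median score are wide, so staying within them does not show that a result is stable. With only summits at or above the median score, 3 members had a summit inside the gene in place of 5, without HDG2 and HDG5. Inside or within 3000 bp, that cutoff left 6 members in place of 7, and 30.5% of all protein-coding genes in place of 44.2%. From first to last coding base, 3 members had a summit inside, since those of FWA and HDG5 lie outside the coding span. For neither setting was the share of all protein-coding genes with a summit inside computed. With 1000 bp in place of 3000 bp, 9 summits lay near members in place of 14, at 6 members in place of 7, and the share of protein-coding genes was 27.6%. With 5000 bp the share was 55.2% and 16 summits lay near 7 members. Among protein-coding genes at least as long as the shortest member the share was 45.2%. This is outside the 95% Wilson interval of 43.6 to 44.7% for all genes, which covers counting error only. The long genes are a subset of all genes, and no interval was computed for their own share, so a shift is not shown. No paired analysis was possible because the list is 1 peak call and no result comes from a test. The depth of the Pol V reads is unknown, so an unlisted position may be below detection.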
